A study of Homo sapiens with 4 samples.

Results

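The promoters of the cytoplasmic ribosomal protein genes were examined in JMJD3c-hESCs. Members were chosen by symbol alone: RPL or RPS followed by a number and at most 1 letter, plus RPLP0, RPLP1, RPLP2 and RPSA. This gave 82 of the 20242 promoters in the deposited data, 33 of genes for the small ribosomal subunit and 49 of genes for the large one. JMJD3c-hESCs derive from SEES-3, a human embryonic stem cell line. They were stably transformed, with puromycin selection, by a transposon in which doxycycline (Dox) switches on a tagged catalytic part of JMJD3, an enzyme that removes methyl groups from lysine 27 of histone H3. Every group carried this transgene, in a background that constantly made the Dox-responsive activator. Chromatin immunoprecipitation followed by sequencing was done with antibodies to H3K27me3 and H3K4me3, each without Dox (−Dox) and with 1 µg/ml Dox in the medium until collection on day 3 (+Dox). Each of the 4 groups held 1 library. There was therefore no replicate spread, no test was possible, and each ratio below compares 2 libraries and not 2 conditions.

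Ribosomal proteins are made in stoichiometric amounts in every growing cell, and their genes are among the most highly transcribed genes of embryonic stem cells. H3K4me3 (trimethylated lysine 4 of histone H3) is laid down around the start sites of transcribed genes, whereas H3K27me3 (trimethylated lysine 27) is the mark left by Polycomb repressor complexes and is usually scarce at such genes. Many ribosomal protein genes begin transcription at a cytosine inside a run of pyrimidines, the TCT initiator, which takes the place of the usual initiator.

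The deposited value of a promoter is a signal: read coverage over a 6 kb window centred on a transcription start site, summed and expressed per library read number. Values above 20 were taken as marked, the threshold of the study's methods. Values in every library were whole multiples of a step of 0.285 to 0.380, from which libraries of about 2629350 to 3509240 reads were inferred. A value of 20 then stood for about 15.8 to 20.6 reads, and 3 reads, set as a floor, for a value of 2.92 to 3.81. Both +Dox libraries had the same step, and whether this reflects equal library sizes or shared scaling was not tested. The median of all promoters was 41.3 in −Dox and 38.8 in +Dox for H3K4me3, and 6.09 and 5.97 for H3K27me3. As a check of the cell type, H3K4me3 was above 20 in both conditions at 8 of 9 promoters of pluripotency genes, and at 1 of 9 promoters of liver, muscle and blood genes in −Dox.

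The promoter sequences were the first feature of the set that the choice by symbol had not used. In the 300 bases around the main annotated start (250 before it and 50 from it on), a TCT motif, searched on the sense strand with its cytosine within 10 bases of the start and spelled CCTTTC, its variant CCTTTT, the form TCTTTC or its variant TCTTTT, was found at 54 of the 81 members with a sequence (66.7%) and at 3.67% of all 19288 promoters searched. The 90 bases from 70 before the start are printed for the members with the highest H3K4me3 (RPL23A and RPL10A), for RPL13A and RPSA, whose motif puts its cytosine on the annotated start itself, for RPL4 and RPL10, which had little or no signal in the deposited windows, and for RPL10L, a paralog with little H3K4me3. The sequences are from GRCh37, the equivalent of the build used by the authors, and run 5′ to 3′ on the strand of the gene, and capitals mark the TCT motif.
RPL23A (chr17:27046933-27047022, plus strand): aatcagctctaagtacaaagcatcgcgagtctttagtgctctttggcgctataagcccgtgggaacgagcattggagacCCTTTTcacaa
RPL10A (chr6:35436108-35436197, plus strand): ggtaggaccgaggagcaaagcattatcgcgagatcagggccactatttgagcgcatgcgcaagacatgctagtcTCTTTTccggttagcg
RPL13A (chr19:49990795-49990884, plus strand): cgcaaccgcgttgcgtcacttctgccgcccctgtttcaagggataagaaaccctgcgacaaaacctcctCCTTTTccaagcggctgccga
RPSA (chr3:39448141-39448230, plus strand): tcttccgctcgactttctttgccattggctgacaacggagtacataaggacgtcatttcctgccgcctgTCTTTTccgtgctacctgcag
RPL4 (chr15:66797174-66797263, minus strand): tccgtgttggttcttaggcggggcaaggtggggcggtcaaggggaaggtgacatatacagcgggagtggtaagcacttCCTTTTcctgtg
RPL10 (chrX:153626648-153626737, plus strand): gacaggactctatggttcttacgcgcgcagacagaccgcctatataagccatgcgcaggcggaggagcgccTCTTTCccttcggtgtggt
RPL10L (chr14:47120965-47121054, minus strand): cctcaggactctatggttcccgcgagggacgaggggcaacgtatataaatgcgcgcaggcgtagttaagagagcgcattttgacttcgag

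The motif was present at RPL4 and RPL10 and absent from RPL10L. RPL10L shared with RPL10 a run of 16 bases, caggactctatggttc, beginning 68 bases before the RPL10 start and 67 bases before its own. The bases within 10 of the start were a median of 75% pyrimidine in members and 50% in all promoters. Among the other motifs, searched on both strands of the same 300 bases, the ETS site CCGGAAG was found at 28 of the 81 members (34.6%, against 14.1% of all promoters) and the YY1 core AAGATGG at 14 (17.3% against 6.39%). The TATA box TATAAA was found at 7 members (8.64% against 9.31%), the GC box GGGCGG at 50 (61.7% against 61.9%) and the E-box CACGTG at 5 (6.17% against 8.73%), each close to its share of all promoters. A match describes letters and is not evidence of binding.

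H3K4me3 was high at most members in both conditions. The signal in −Dox had a median of 98.0 and quartiles of 74.4 and 122, and 74 of 82 members exceeded 20. In +Dox the median was 92.1, the quartiles were 63.8 and 115.7, and 72 members exceeded 20. Over all promoters, 63.7% exceeded 20 in −Dox and 62.7% in +Dox. The median member lay at percentile 89.7 of all promoters in −Dox, with 63 members above percentile 75 and 41 above percentile 90. The class of promoters marked by H3K4me3 alone in −Dox, which holds 10980 promoters and includes 74 members, had medians of 66.4 and 64.9.

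**Figure D1:**
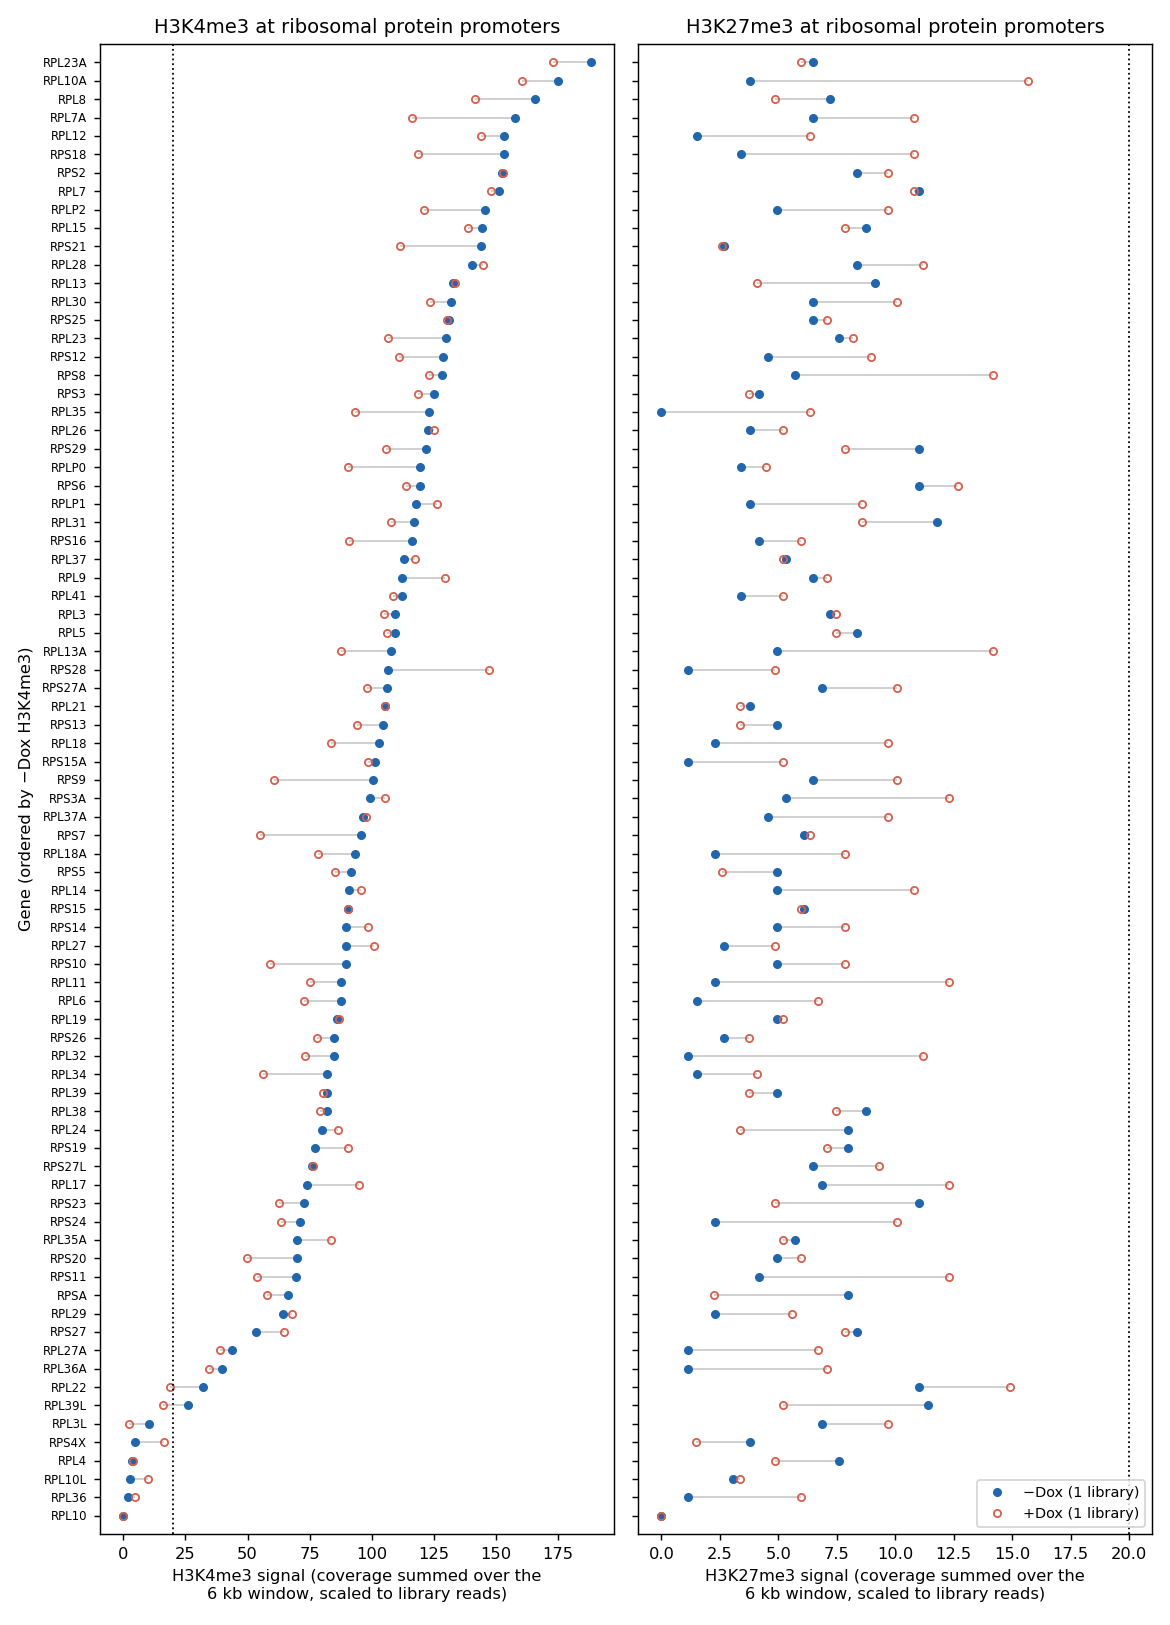
Signal of H3K4me3 (left) and H3K27me3 (right) at 80 of the 82 ribosomal protein promoters, ordered by H3K4me3 in −Dox. Filled points are the −Dox library, open points the +Dox library, grey lines join the same promoter, and the dotted line is the threshold of 20. H3K4me3 ran from 0 to 188 in −Dox with 74 promoters above the threshold, and every H3K27me3 value was below 20.

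The highest H3K4me3 belonged to large subunit genes. RPL23A, whose protein lies at the mouth of the tunnel through which the new peptide leaves the ribosome, had a signal of 188 in −Dox and 173 in +Dox. RPL10A, the protein of the mobile stalk beside the exit site for tRNA, had 175 and 160. RPL8, which lies close to the catalytic centre, had 166 and 141, and RPL7A had 158 and 116. RPL12, a protein at the base of the stalk that recruits translation factors, had 153 and 144. All 5 stayed among marked promoters after Dox, and the values in the pair of libraries kept a similar order over the set: across the 74 members above 20 in −Dox, Pearson's r between the libraries was 0.897 and Spearman's rho 0.886, a description of points that share their library.

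The subunits differed little in level. Small subunit promoters had a median H3K4me3 of 95.7 in −Dox and 90.2 in +Dox, and large subunit promoters 103 and 94.7. The genes of the stalk were all marked in both conditions. RPLP0, the scaffold of the stalk, had 119 in −Dox and 90.6 in +Dox. RPLP1, one of the acidic proteins bound to it, had 118 and 126, and RPLP2, the other, had 146 and 121. RPSA, a small subunit protein also known as a laminin receptor, was lower, at 66.1 and 57.8. RPS27A, which encodes ubiquitin fused to a ribosomal protein, had 106 and 98.1.

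Of the 9 members listed as mutated in Diamond-Blackfan anaemia, a failure of red cell production, 8 were marked in both conditions. RPS19, the most often mutated of them, had 77.2 in −Dox and 90.2 in +Dox. RPL5 had 109 and 106, and RPL11 had 87.8 and 75.3. The products of these genes form, with the 5S RNA, the particle that holds back the p53 regulator MDM2. RPS24 had 71.2 and 63.4, RPS26 84.9 and 77.9, and RPL35A 69.8 and 83.5. RPS7 had 95.7 and 55.2, and RPS10 had 89.5 and 58.9, the largest differences between the libraries among these 8 genes.

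The 26 members that carry small nucleolar RNAs, guides of ribosomal RNA modification, in their introns had a median of 109 in −Dox and 106 in +Dox. Base composition followed the level only loosely. Over the 68 placed members above 20, H3K4me3 in −Dox had r = 0.299 and rho = 0.338 with GC content of the window, and r = 0.373 and rho = 0.284 with the ratio of observed to random CpG. The median GC content of the 73 placed members was 48.7%, against 48.5% of all placed promoters. Among the members placed within 1000 bp of their main start, the 43 with a TCT motif had H3K4me3 of 39.9 to 188 (median 112) in −Dox, and the 20 without it had 2.85 to 153 (median 90.5), so the ranges overlapped over most of their length.

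Little H3K4me3 was found at 8 members in −Dox. Of these, 3 were listed at 0 in all 4 libraries, RPL10 among them. RPL36, a large subunit gene, had 1.99 in −Dox and 4.85 in +Dox. RPL10L, an intronless copy of RPL10 used in the male germ line, had 2.85 and 10.1. RPL4, whose protein lines the exit tunnel, had 3.70 and 4.10. RPS4X, the X-linked copy of a small subunit gene, had 4.84 and 16.4. RPL3L, the form of RPL3 found in striated muscle, had 10.3 and 2.24. In +Dox 2 further members were at 20 or below: RPL39L, a copy of RPL39 best known from the male germ line, with 25.9 in −Dox and 16.0 in +Dox, and RPL22, with 31.9 and 19.0. The next members above these in −Dox were RPL36A with 39.9 and RPL27A with 43.6, which had 34.7 and 38.8 in +Dox.

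For RPL36, RPL4 and RPS4X the deposited window did not hold the main start of the gene. Each window is centred on the start of 1 transcript per gene, and 73 members could be placed by that transcript in GENCODE 44 on GRCh37. The deposited start lay within 1000 bp of the main start, that of the transcript the annotation takes as canonical, for 63 members and within 100 bp for 55. It lay over 1000 bp away for 10 members, against 13.6% of those of the 18244 placed promoters for which this distance was known. It lay over 3000 bp away for 8 members, so that the main start was outside the window. The share past 3000 bp over all promoters was not computed. All 61 members placed within 1000 bp other than the paralogs RPL3L and RPL10L exceeded 20 in both conditions, with H3K4me3 of 39.9 to 188 (median 107) in −Dox and 34.7 to 173 (median 98.4) in +Dox.

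**Figure D2:**
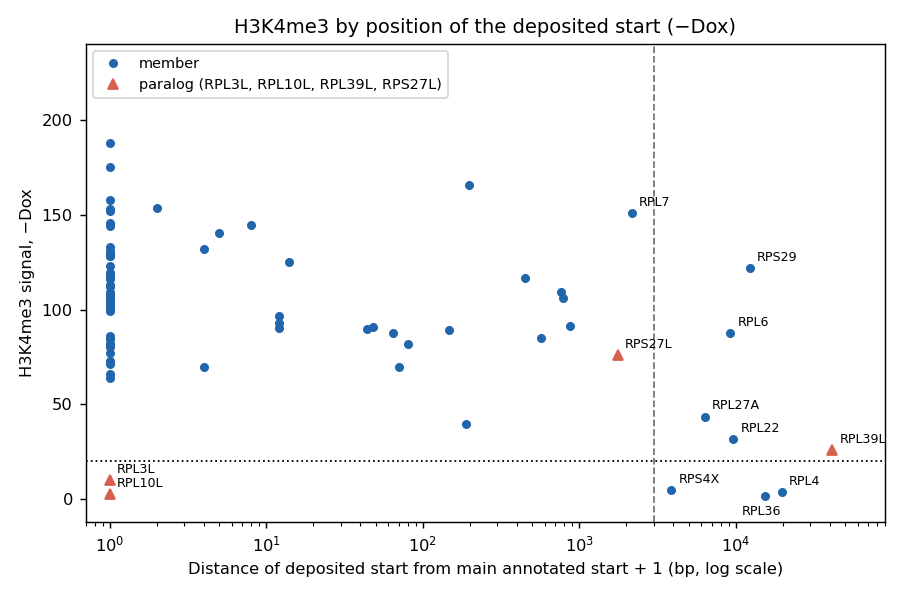
H3K4me3 in −Dox of the 73 placed members against the distance in bp between the deposited start and the main annotated start, plus 1, on a log axis. The dotted line is the threshold of 20, the dashed line is 3000 bp, past which the window does not reach the main start, and triangles are 4 paralogs. Below the threshold lie RPS4X, RPL36 and RPL4, past the dashed line, and the paralogs RPL3L and RPL10L, at a distance of 0.

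Of the 8 members whose window missed the main start, 3 had little H3K4me3 and 5 did not. The RPL36 window (chr19:5671958-5677958) was centred 15348 bp from the main start, that of RPL4 (chr15:66813870-66819870) 19677 bp and that of RPS4X (chrX:71490221-71496221) 3877 bp. The other 5 were RPL39L, 41412 bp away, RPL22 at 9649 bp, RPL27A at 6338 bp, RPL6 at 9233 bp with H3K4me3 of 87.5 in −Dox and 72.7 in +Dox, and RPS29 at 12310 bp with 122 and 105.5. The RPL6 window also held 1 other deposited start and the RPS29 window 2, so their signal cannot be assigned to RPL6 or RPS29. RPL22, RPL27A and RPL39L were the lowest of the marked members apart from RPL36A. A window with little signal at these genes therefore did not measure the promoter that the annotation gives as the main one.

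For RPL4 the main start fell into another deposited window. The window of ZWILCH, a kinetochore gene that starts 471 bp from the RPL4 main start and on the other strand, had H3K4me3 of 123 in −Dox and 123 in +Dox, at percentile 96.2 of all promoters, where the RPL4 window had 3.70 and 4.10. Reads of the ZWILCH and RPL4 starts cannot be told apart in that window. Other entries also covered the main starts of 3 members whose own transcript was not placed. RP11-849F2.7 had 125 in −Dox and 123 in +Dox beside 123 and 125 for RPL26. Readthrough entries had values close to those of their members: RPL17-C18orf32 had 73.5 in −Dox and 93.2 in +Dox beside 73.8 and 94.7 for RPL17, and RPS10-NUDT3 had 87.8 and 60.0 beside the RPS10 values given above.

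The 3 members at 0 in all 4 libraries were among the 9 that could not be placed. A value of 0 in all 4 libraries was found at 3.55% of the promoters not placed and at 1.66% of those placed. RPL10, which encodes a protein needed for joining of the subunits, was listed at 0 although its main start carries a TCT motif, and the reason was not tested.

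The paralogs did not behave as a group. RPL3L and RPL10L, whose deposited start is the main start, had little H3K4me3. RPL39L was close to the threshold in a window that missed its main start, and RPS27L, a p53 target that is widely expressed, had 76.1 in −Dox and 76.4 in +Dox with its window centred 1762 bp away. Of the paralogs that the choice by symbol left out, 4 were looked at and all were marked: RPL7L1 had 87.5 and 77.6, RPL22L1 66.7 and 49.2, RPL26L1 80.9 and 65.6, and RPL36AL 124 and 120.

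H3K4me3 was slightly lower in +Dox than in −Dox over the set. The summed signal of the 82 members was 7737 in −Dox and 7176 in +Dox, a ratio of 0.927 with a 95% interval of 0.896 to 0.960. This interval, like all intervals on ratios here, was computed by the exact Clopper-Pearson method from the approximate reads of both libraries (7960 and 5712) and covers counting error only. A change in every cell and a larger change in some of the cells cannot be told apart in these bulk samples. The median ratio of the 79 members with a −Dox value above 0 was 0.939, that is −0.09 on the log2 scale with quartiles of −0.26 and 0.02, and 54 of the 79 were below 1. The ratio was above 1 at 31.6% of these members, at 47.4% of all promoters and at 45.0% of those with H3K4me3 alone. Over all promoters the ratio of sums was 0.975, and over those marked by H3K4me3 alone it was 0.977 (0.974 to 0.981). The difference was small beside what a change of scaling can do: setting promoters with little of the mark to a median ratio of 1 moved the members' ratio to 0.834 and the median of all promoters by −0.15 on the log2 scale.

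The spread of the log2 ratio over the 79 members had an SD of 0.482, against a median SD of 0.220 from counting alone. Over the 74 members above 20 in −Dox it was 0.249 against 0.216, and over the 61 members at their main start other than RPL3L and RPL10L, a selection made after the data had been seen, it was 0.205 against 0.214. The wider spread over all members thus came with the few promoters of low signal. A ratio below 0.66 was found at 6 of 79 members, against 11.7% of all promoters, and a ratio above 1.5 at 3, against 11.6%. The shares over all promoters include many unmarked promoters of low signal. Of the 10980 promoters with H3K4me3 alone, 422 were below 0.66 and 174 above 1.5, against 5 and 0 of the 74 members in that class. The class was chosen by a −Dox value above 20, the denominator of the ratio, which favours low ratios over high ones. The 3 members above 1.5 lay below that threshold and could not enter the class. The 6 were RPL3L with a ratio of 0.218, RPS7 with 0.576, RPL22 with 0.596, RPS9 with 0.606, RPL39L with 0.618 and RPS10 with 0.658. The 3 were RPL36, RPS4X and RPL10L, all with fewer than 5 units of signal in −Dox, where a ratio rests on a few reads.

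The interval of the ratio lay below 1 at 4 members, against 3.06% of all promoters, and above 1 at 2, against 1.73%. Below 1 were RPS7, a small subunit protein that binds MDM2, with a ratio of 0.576 (0.393 to 0.827), RPS9, which helps to keep decoding accurate, with H3K4me3 of 100.3 in −Dox and 60.8 in +Dox and a ratio of 0.606 (0.418 to 0.856), RPS10 with 0.658 (0.454 to 0.948) and RPL7A with 0.738 (0.569 to 0.963). RPS7 was among the members that could not be placed, so whether its window held the main start is not known. The readthrough entry that overlaps RPS10 had 0.684 (0.475 to 0.989), but it counts largely the same reads. Above 1 were RPS28, with 107 in −Dox and 147 in +Dox and a ratio of 1.38 (1.05 to 1.80), and RPS4X, with about 5 reads against 13 and a ratio of 3.39 (1.12 to 12.04). These counts were close to the background share, so they are no result about the set.

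H3K27me3 stayed below the threshold at all 82 members in both conditions. Most promoters were below it too: 11.0% of all promoters exceeded it in −Dox and 6.73% in +Dox. The highest member value was 11.8 in −Dox, at RPL31, and 15.7 in +Dox, at RPL10A. The median was 4.94 in −Dox and 7.08 in +Dox, and the quartiles were 2.76 and 7.13 in −Dox and 4.85 and 9.69 in +Dox. Promoters carrying both marks had medians of 43.0 in −Dox and 24.2 in +Dox. That class was defined by −Dox values above the threshold, so in −Dox it had to lie above the members. Promoters with H3K4me3 alone had medians of 6.09 and 5.97, above the members in −Dox and below them in +Dox. Over the 74 members above 20 for H3K4me3, H3K27me3 in −Dox did not follow H3K4me3 (r = 0.045, rho = 0.096).

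The low H3K27me3 of the members was higher in +Dox. The summed signal was 426 in −Dox and 591 in +Dox, a ratio of 1.39 (1.20 to 1.60) that rests on about 336 and 474 reads. The small subunit had a ratio of 1.29 (1.03 to 1.63) and the large subunit 1.45 (1.21 to 1.75). The median ratio of the 78 members with a −Dox value above 0 was 1.36, or 0.45 on the log2 scale with quartiles of −0.13 and 1.20. It was above 1 at 52 of them (66.7%), against 43.4% of all promoters and 48.1% of those with H3K4me3 alone.

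**Figure D3:**
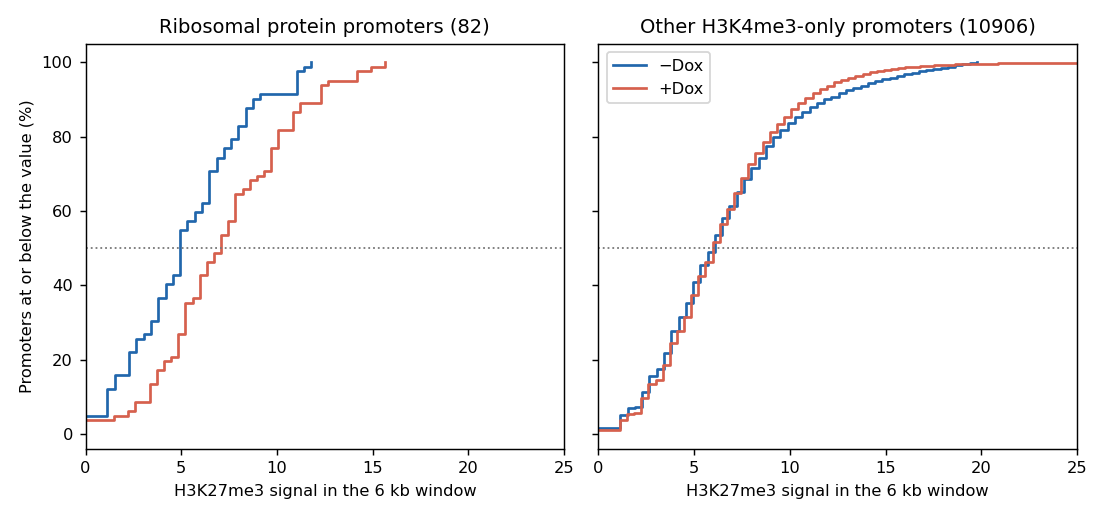
Cumulative share of promoters at or below each H3K27me3 signal, for the 82 members (left) and the other 10906 promoters marked by H3K4me3 alone in −Dox (right). Blue is −Dox and red +Dox, and the dotted line marks 50%. The member curve lies further right in +Dox, from a median of 4.94 to 7.08, while the curves of the other promoters nearly coincide at their medians.

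The promoters of the same class had other ratios. The ratio of summed H3K27me3 was 0.978 (0.966 to 0.989) over promoters with H3K4me3 alone, 0.976 over unmarked promoters, 0.713 over promoters with both marks and 0.850 over all promoters. It was higher where H3K4me3 was higher. When the H3K4me3-only promoters other than members were split into 5 equal parts by their mean H3K4me3, a split chosen after the data had been seen, the H3K27me3 ratio was 0.856, 0.930, 1.00, 1.03 and 1.09 from the lowest part to the highest, whose interval was 1.06 to 1.12. The members' ratio of 1.39 lay above that of the part with the highest H3K4me3. The values are scaled to library reads and no input library was used here, so a gain at these promoters and a loss in the rest of the genome cannot be told apart.

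Few members were resolved singly. A ratio above 2 was found at 23 of 78 members, against 14.7% of all promoters, and a ratio below 0.5 at 6, against 21.5%. The interval of the ratio lay above 1 at 3 members, against 1.59% of all promoters, and below 1 at 0, against 7.06%. Of the 1374 promoters with an interval below 1, 926 carried both marks. Among the 10812 promoters with H3K4me3 alone and a ratio, the interval lay above 1 at 158 and below 1 at 211. The 3 were RPL10A, with H3K27me3 of 3.80 in −Dox and 15.7 in +Dox and a ratio of 4.12 (1.17 to 23.3), RPL11, with 2.28 and 12.3 and a ratio of 5.39 (1.05 to 46.2), and RPL32, with 1.14 and 11.2 and a ratio of 9.80 (1.23 to 388). Without the 5 members with the largest differences the ratio of sums was 1.28. A typical member held about 5 reads of H3K27me3, too few to order single promoters, and over the 78 members the libraries were only weakly related (r = 0.177, rho = 0.182).

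The other large ratios came from very low −Dox values. RPL36A, RPL27A and RPL36 each had 1.14 in −Dox, about 1 read, and had 7.08, 6.71 and 5.97 in +Dox. RPL35 was at 0 in −Dox and at 6.34, about 5 reads, in +Dox, and the lower limit of its ratio was 0.902, so the interval included 1. The lowest ratios were those of RPSA (7.99 to 2.24, ratio 0.280), RPS4X (3.80 to 1.49, 0.392), RPL24 (7.99 to 3.36, 0.420), RPS23 (11.0 to 4.85, 0.439) and RPL13 (9.13 to 4.10, 0.449), and each of their intervals included 1.

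Members chosen for their role spread over the same range of H3K27me3. RPLP0 had 3.42 in −Dox and 4.47 in +Dox, RPLP1 3.80 and 8.58, and RPLP2 4.94 and 9.69, so all 3 stalk genes were higher in +Dox, with intervals that included 1. RPS27A had 6.85 and 10.1. Of the Diamond-Blackfan genes with a ratio, 5 of 8 were above 1, among them RPS24 with 2.28 and 10.1, and RPL5 and RPL35A were slightly below 1 with 8.37 to 7.46 and 5.70 to 5.22.

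Other housekeeping genes were compared by the same sums, in lists chosen by the beginning of the symbol alone. A gene with a matching symbol was counted whatever its role. For H3K4me3 the ratio was 0.977 (0.939 to 1.02) over 76 mitochondrial ribosomal protein genes, 0.951 (0.908 to 0.997) over 56 translation initiation factor genes, 0.946 (0.851 to 1.05) over 9 elongation factor genes and 1.01 (0.951 to 1.06) over 40 proteasome genes. Their median H3K4me3 in −Dox was 70.7, 81.8, 98.3 and 71.0 in that order, so only the elongation factors reached the 98.0 of the ribosomal proteins. The share above 20 for H3K4me3 in −Dox was 93.4%, 85.7%, 100% and 92.5% in that order, against 90.2% of the ribosomal proteins. For H3K27me3 the ratio was 1.12 (0.970 to 1.30) for the mitochondrial proteins, 1.05 (0.886 to 1.24) for the initiation factors, 2.48 (1.54 to 4.20) for the elongation factors and 0.813 (0.679 to 0.975) for the proteasome. In −Dox 1 mitochondrial, 2 initiation factor and 3 proteasome promoters exceeded 20 for H3K27me3, up to 22.8, 43.0 and 82.9, and in +Dox 0 did. A sum gives such promoters more weight than a median. The median ratios of the 4 lists were 1.22, 1.06, 4.62 and 1.02 in that order, against 1.36 for the ribosomal proteins. For the sums, the interval of the ribosomal proteins did not reach the ratio of the initiation factors, the mitochondrial proteins or the proteasome. It overlapped the interval of the first 2 of these lists. The elongation factors, which rest on about 24 and 61 reads, were higher still. No difference between lists was tested.

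**Figure D4:**
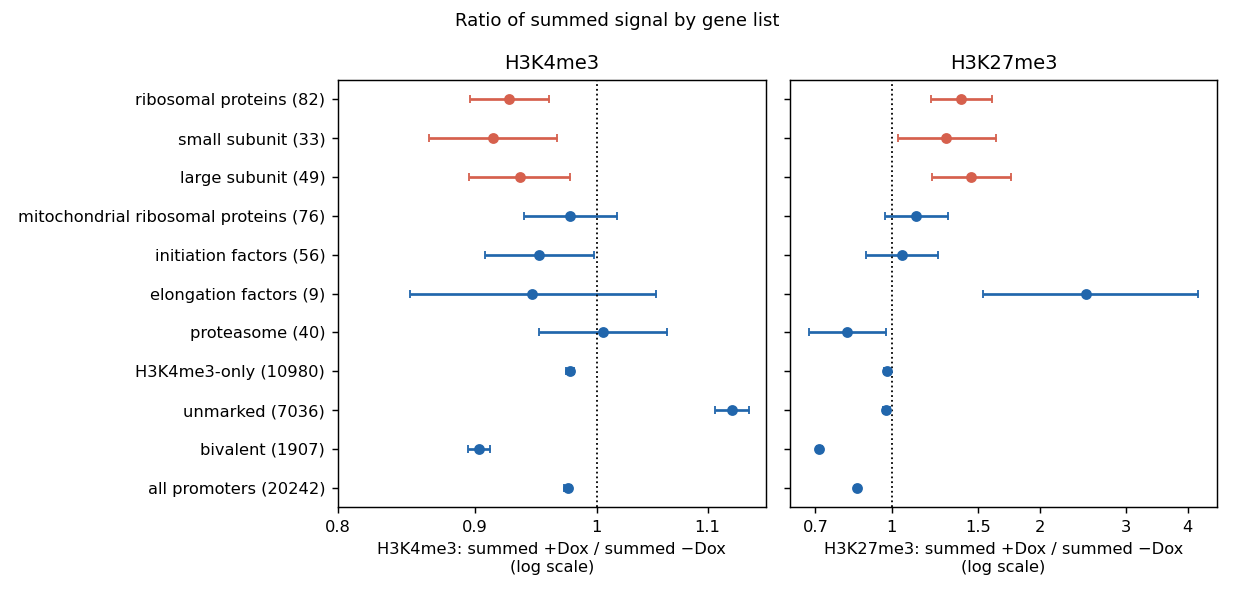
Ratio of summed +Dox to summed −Dox signal for H3K4me3 (left) and H3K27me3 (right), on log axes with different ranges. Points are gene lists, with the number of promoters in brackets, bars are 95% intervals from counting error only, and the dotted line is a ratio of 1. Ribosomal proteins (red) lie at 0.927 for H3K4me3 and 1.39 for H3K27me3, while promoters marked by H3K4me3 alone lie at 0.977 and 0.978.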

How the data were processed

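The 4 libraries were sequenced and mapped to hg19 with Bowtie2 by the authors, and CASAVA 1.4 is also named in the submitters' processing notes. The authors deposited signal: coverage from ngs.plot over 3 kb on each side of a start, per library read number. The methods also describe a scaling to the density downstream of transcript ends, without saying if these values received it. Approximate reads were obtained by dividing the values by the step and by the data points covered by 1 read (3.34 to 3.41). All values were whole multiples of the step within 0.02 of it, and the windows held about 197908, 170885, 945697 and 713627 reads in H3K27me3 −Dox and +Dox and H3K4me3 −Dox and +Dox.

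Symbols and gene lists were chosen with earlier results of these data known. Members named singly were those at or below 20 for H3K4me3, the 5 highest and lowest in level, the 5 highest and lowest in ratio, and genes chosen for their role. RPS29, RPL6, RPL31, RPL35, RPL17, RPL26 and RPL13A were chosen after their values were seen. Some members, although counted, are not reported here by name. Ratios carry no pseudocount, and a −Dox value of 0 gives none. Other scalings, pseudocounts, thresholds and selections of members were tried as alternatives, and the split by H3K4me3 level, the restriction to placed members and the removal of the 5 largest differences were added after the data had been seen. Starts were taken from GENCODE 44 lifted to GRCh37. Calculations used Python 3.11.15, numpy 2.4.6, pandas 2.3.3, scipy 1.17.1 and matplotlib 3.10.9, and intervals were tested on simulated data. No molecular identifiers were used, so reads may repeat molecules and intervals cover counting error only.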

Additional observations from a re-analysis of the deposited data

How the results depend on the processing

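No paired analysis was possible because there is 1 library in each group. Leaving out a library was not possible either. Of 91 recomputed values, 79 stayed within their interval or 1.5 times the reported count, and no direction turned. The alternative of 1 row per symbol kept all 82 members. Its values, 1 for each of the 12 results, are among the 79 and could not change. Scaling over promoters with little of the mark moved the H3K4me3 ratio of sums to 0.834 and the median to −0.24 on the log2 scale. Scaling +Dox to the −Dox total moved the H3K27me3 ratio of sums to 1.63 and the median to 0.68, and left 3 members with a ratio below 0.5. That scaling shifts the median of all promoters by 0.23 on the log2 scale. A pseudocount of 1 left 3 members below 0.5, and a pseudocount of 5 left 0 below 0.5 and 6 above 2. A minimum mean of 5 left 14 above 2. Without starts over 1000 bp from the main start, 1 member had an H3K4me3 ratio above 1.5 and 5 had little H3K4me3. With a threshold of 10, 7 members exceeded it for H3K27me3 in −Dox. Over all alternatives, the H3K4me3 ratio of sums ran from 0.834 to 0.951 and that of H3K27me3 from 1.28 to 1.63. At about 5 reads of H3K27me3 per member, the ratio of most single promoters was not distinguishable from 1 at this depth, and 3 members had an interval above 1.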

Other observations

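The genes with elongation factor symbols had the lowest median H3K27me3 of the translation lists in −Dox, 2.66 over 9 promoters, and the highest in +Dox, 9.32. The ratio was above 1 at 7 of the 9. The median of the proteasome genes was 6.09 in −Dox and 6.34 in +Dox. Of the placed members above 20 for H3K4me3 in −Dox, the 18 whose window also held the start of another gene had a median H3K27me3 ratio of 1.34, and the 50 with no other start had 1.41.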
